A study of Bos taurus with 8 samples.

Results

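The genes described here encode the initiation and elongation factors of cytoplasmic translation, the proteins that start, carry forward and restrain protein synthesis on the ribosome. They were taken as the non-control probes of the bovine array whose gene symbol, looked up in RefSeq through the accession printed beside each probe, begins with EIF1 to EIF6 or with EEF. The rule found 39 probes for 35 genes among the 21475 non-control probes of the array. All 39 were among the 17631 probes bright enough to be tested, and 37 of the 39 (94.9%) lay well above background in each of the 16 channels, against 65.4% of all probes. A further 31 genes with such symbols in the RefSeq table had no matched probe and were not analysed here. Among these were the cap-binding protein EIF4E, its repressors EIF4EBP1, EIF4EBP2 and EIF4EBP3, and the eIF2 kinases EIF2AK1, EIF2AK2 and EIF2AK4.

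The study compared primary cultures of muscle cells from the semitendinosus muscle of bulls of the beef breeds Limousin (LIM) and Hereford (HER) with those of the dairy breed Holstein Friesian (HF), which served as the control. All bulls were 15 months old, and 4 of each breed were used. Every culture was grown untreated in growth medium to 80% confluence. Its cells, still proliferating, were then pelleted and frozen. The cells were released from frozen muscle with pronase and enriched for myoblasts by repeated preplating, which removes cells that attach fast such as fibroblasts. By the study's methods this left the cultures enriched but not pure, so they could hold other cells of muscle tissue. Each array carried 1 beef and 1 HF culture in different dyes, LIM in Cy5 on 4 arrays and HER in Cy3 on 4 arrays. Values are log2 ratios of the beef breed over HF, so that 1 is a doubling and 0 is no difference, and a negative value is a lower level in the beef cells. LIM, its slide and its dye cannot be told apart within the LIM comparison, and the same holds for HER. The dye cancels in the mean of both comparisons, called the beef effect below. Both comparisons rest on HF cultures, and which HF bull lay on which array is not given in the sources used here. With 4 HF bulls and 1 HF culture on each of the 8 arrays, HF bulls must recur across arrays. The main fit and the tests below take the 8 arrays as independent, so their errors and p-values do not allow for this.

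Translation begins when the small ribosomal subunit, loaded with initiator tRNA by eIF2 and held open by eIF1, eIF1A and eIF3, is brought to the capped end of an mRNA by the eIF4F complex and scans to a start codon. eIF2B recharges eIF2 after each round, and kinases that phosphorylate eIF2 under stress slow this step. In elongation eEF1A delivers aminoacyl-tRNA, the eEF1B subunits recharge eEF1A, eEF2 moves the ribosome along, and eIF5A helps it through difficult sequence. Skeletal muscle is known for replacing the general form of eEF1A, EEF1A1, by EEF1A2 as it matures.

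The cultures carried markers of muscle, as labelled, and the groups differed in them. All 8 tested markers of differentiating muscle cells were higher in both beef breeds at a limma adjusted p of at most 0.05, with a median log2 ratio on single arrays between 2.44 and 4.15. Of 6 tested markers of satellite cells and myoblasts, 5 had a higher beef effect, and of 6 fibroblast markers 5 had a higher one and PDGFRA a lower one. For smooth muscle cells 2 of 3 markers were higher, for adipocytes 2 were higher and 1 lower of 4, for macrophages and leukocytes 1 of 2 was higher, and for neurons 1 of 2 was lower. The endothelial markers KDR and TEK and the markers of dividing cells CDK1 and PCNA did not pass the test in any comparison. In bulk cultures fewer cells of a type and less RNA per cell cannot be told apart, and the part of the cell mixture in the ratios below was not tested.

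The shares of translation factor probes called lay near or below those of the whole array, and their ratios were small. In LIM cells 10 of the 39 probes passed an adjusted p of 0.05, 3 higher and 7 lower, which is 25.6% against 35.9% of all probes tested (16.6% higher and 19.3% lower). In HER cells 7 passed, 4 higher and 3 lower, or 17.9% against 25.4% of all probes (10.7% higher and 14.7% lower). For the beef effect 19 probes of 17 genes passed, 6 higher and 13 lower, or 48.7% against 47.5% of all probes. By direction, 15.4% of the factor probes and 21.4% of all probes were called higher, while 33.3% and 26.2% were called lower. The median beef effect was -0.11 over the 39 probes and -0.04 over all probes. The median size of the beef effect, whatever its sign, was 0.26 over the 39 probes and 0.33 over all probes. At the thresholds of the study's methods, an unadjusted p of at most 0.05 with a fold change of at least 1.3, limma called 12 probes in LIM against 41.6% of all probes, 10 in HER against 34.8%, 8 for the beef effect against 41% and 4 for the difference between LIM and HER against 14.1%. The counts rested on few arrays, and so did the shares over all probes. Without HER array 1, 2, 3 or 4 the HER count was 1, 1, 2 or 4, against 8.93%, 8.66%, 15.1% or 19.7% of all probes. Without LIM array 2, 3 or 4 it was 4, 4 or 13, against 21.4%, 20.6% or 33.9% of all probes. Without LIM array 1, 2 or 3 the LIM count was 5, 6 or 5, against 26.5%, 25.3% or 21.5% of all probes. The beef count was 10 without HER array 1, 12 without HER array 2, 12 without LIM array 1 and 11 without LIM array 2. Of all probes 39.1%, 39.2%, 41.6% and 40.5% had a beef call in these fits. With normexp on the backgrounds as measured no probe of the array passed in HER.

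**Figure D1:**
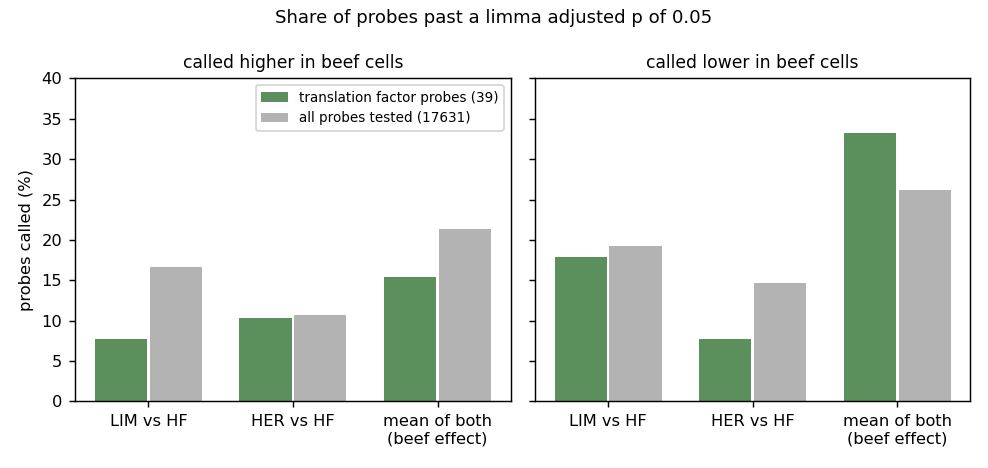
Share of probes past a limma adjusted p of 0.05 (y axis, percent) among the 39 translation factor probes (green) and all 17631 probes tested (grey), for probes called higher (left) and lower (right) in beef cells. The factor probes lay below or near the background in each comparison except for lower calls of the beef effect, 33.3% against 26.2%.

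By their brightest probe 5 genes had a higher beef effect, namely EIF1B, EIF4A2, EIF2AK3, EIF1 and EIF1AX. The 12 genes with a lower one were led by EIF5A2, EEF1B2, EIF3B, EIF2B3 and EIF2S1, and belonged to all roles but the eIF2 kinases and the eEF2 pair. A beef effect is a mean and need not be shared by both breeds. Only 3 probes (7.69%), those of EIF1B, EIF5A2 and EEF1B2, were called in LIM and also in HER, against 17.7% of all probes. Of the genes with a beef effect, EIF2AK3, EIF3B, EIF4A2, EIF4A3 and EIF3M passed in LIM but not in HER, and EIF1 passed in HER but not in LIM. EIF4A3 had -0.43 in LIM (limma adjusted p = 0.0206) and -0.23 in HER (0.176). EIF3M had -0.44 in LIM (limma adjusted p = 0.0312) and -0.21 in HER (0.256). On all 8 arrays 3 of the 39 probes (7.69%) lay above 0 and 6 (15.4%) below 0, against 11.7% and 16.9% of all probes. The values of each array stand in the plot of all 35 genes and, for the members that matter most, in the sentences on each step of translation.

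**Figure D2:**
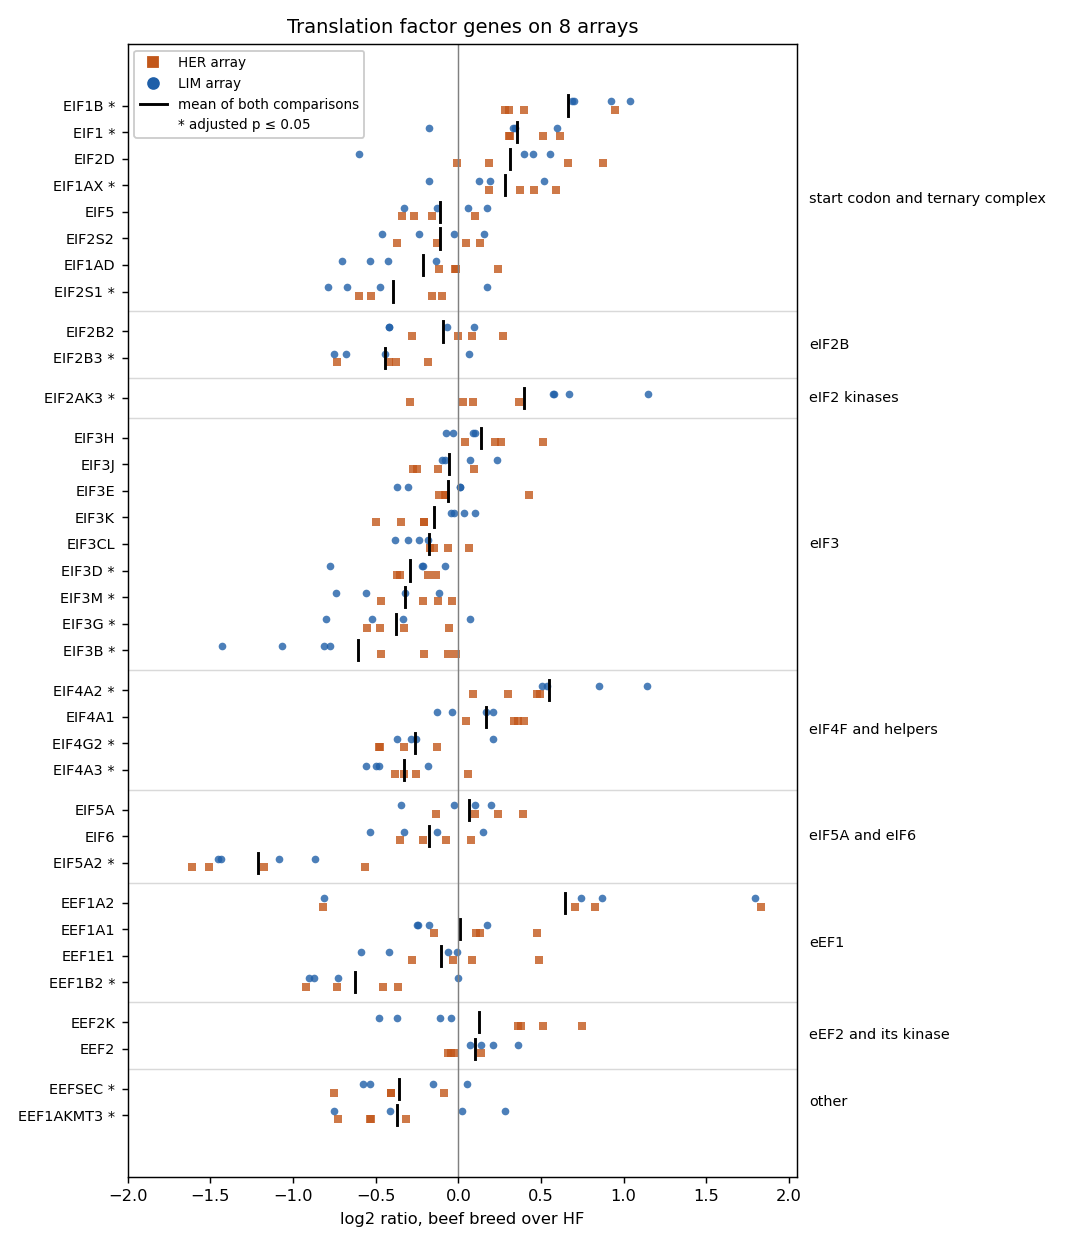
Log2 ratio of beef breed over HF (x axis) on each of the 8 arrays for the brightest probe of each of the 35 genes, grouped by role, with HER arrays as orange squares, LIM arrays as blue circles and the mean of both comparisons as a black bar. EIF5A2 lay below 0 on all 8 arrays and EIF1B above 0 on all 8, whereas EEF1A2 spread from -0.82 to 1.83.

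Of 10 probes for 8 genes of start codon selection and the eIF2 complex, 4 probes had a higher and 1 a lower beef effect, against 21.4% higher and 26.2% lower over all probes, and the median over the 10 was 0.09. The higher probes belonged to EIF1B, EIF1 and EIF1AX, the last with 2 probes. EIF1B, a close relative of the start codon guard eIF1, was the most raised factor past the test. Its log2 ratio was 0.92, 0.70, 1.04 and 0.69 on the LIM arrays and 0.40, 0.95, 0.31 and 0.28 on the HER arrays. Every array lay above 0, and the beef effect was 0.66 ± 0.10 (SE) or 1.58-fold, with an adjusted p of 0.000966. In LIM cells the mean was 0.84 ± 0.17 (SD, n = 4) with an adjusted p of 0.00266, and in HER cells 0.48 ± 0.31 (SD, n = 4) with an adjusted p of 0.0344. The HER call was lost in fits without HER array 1, 2, 3 or 4 or without LIM array 2, with adjusted p from 0.0506 to 0.132.

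EIF1 itself, which keeps the scanning ribosome from starting at a wrong codon, had ratios of 0.60, 0.33, 0.35 and -0.18 in LIM and of 0.30, 0.62, 0.51 and 0.31 in HER. The last LIM array was the only one below 0. The beef effect was 0.36 ± 0.10 (SE), adjusted p = 0.0166, while LIM alone gave 0.27 with an adjusted p of 0.15 and HER alone 0.44 with an adjusted p of 0.0482. The HER call ended without HER array 1, 2, 3 or 4 or LIM array 2 or 3. Within an array EIF1B exceeded EIF1 by 0.56 on average in LIM and by 0.05 in HER, a pair chosen after its values were seen.

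EIF1AX, which encodes eIF1A, a partner of eIF1 in scanning, was measured by 2 probes that moved alike. The brighter probe read 0.52, 0.19, 0.12 and -0.18 in LIM and 0.59, 0.46, 0.37 and 0.18 in HER, and its beef effect was 0.28 ± 0.09 (SE), adjusted p = 0.0344. The other probe gave 0.35 with an adjusted p of 0.00858. The call of the brighter probe was lost without HER array 1, 2 or 3 or LIM array 1, 2 or 3, and with normexp correction on the backgrounds as measured, where the effect was 0.12.

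The eIF2 and eIF2B subunits on the array pointed the other way, if at all. EIF2S1, the alpha subunit of eIF2 on which the stress kinases act, read -0.79, -0.67, -0.47 and 0.18 in LIM and -0.60, -0.53, -0.16 and -0.10 in HER. All arrays but LIM array 4 lay below 0, and the beef effect was -0.39 ± 0.12 (SE), adjusted p = 0.0273, a call lost without HER array 1 or 2 or LIM array 1, 2 or 3. EIF2B3, the gamma subunit of the exchange factor eIF2B, read -0.75, -0.68, -0.44 and 0.07 in LIM and -0.74, -0.42, -0.38 and -0.18 in HER. Here too LIM array 4 alone lay above 0, and the beef effect was -0.44 ± 0.11 (SE) or 1.36-fold lower, adjusted p = 0.0113. Neither LIM alone nor HER alone passed for EIF2B3, at adjusted p of 0.0517 and 0.0733.

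The remaining members of these steps stayed short of the threshold for the beef effect. EIF2S2, the beta subunit of eIF2, had a beef effect of -0.11 (adjusted p = 0.354) and EIF2B2, the beta subunit of eIF2B, of -0.09 (adjusted p = 0.444). EIF5, which triggers GTP hydrolysis on eIF2 at the start codon, had -0.11 by its brighter and -0.13 by its other probe. EIF2D, which can load initiator tRNA without eIF2, had 0.32 (adjusted p = 0.125) and ranged from -0.60 on LIM array 1 to 0.87 on HER array 3. Without LIM array 1 it was 0.45 (adjusted p = 0.0223). EIF1AD, a protein with an eIF1A-like domain, passed only in LIM, at -0.45 (adjusted p = 0.0206), against 0.02 in HER, and its LIM call was lost without LIM array 1, 2 or 3.

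EIF2AK3, known as PERK, the kinase that phosphorylates eIF2 when unfolded protein gathers in the endoplasmic reticulum, was the only eIF2 kinase with a matched probe. Its brighter probe read 0.67, 0.58, 0.57 and 1.14 in LIM and 0.37, 0.03, -0.29 and 0.09 in HER. The LIM arrays all lay above the HER arrays. The LIM mean was 0.74 ± 0.27 (SD, n = 4) or 1.67-fold, adjusted p = 0.00531, the HER mean was 0.05 ± 0.27 (SD, n = 4), adjusted p = 0.818, and the beef effect was 0.40, adjusted p = 0.0124. The other probe did not pass, at 0.43 in LIM and 0.00 in HER, with a LIM array 4 value of -0.03 against 1.14 by the brighter probe, so the probes disagreed most on that array. The difference between LIM and HER was 0.69 (95% interval 0.23 to 1.15) by the brighter probe, with a limma p of 0.00824 before and 0.184 after adjustment.

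eIF3 is the largest initiation factor and the scaffold on the small subunit. Of 9 subunit genes with a probe, 4 had a lower and none a higher beef effect, against 26.2% lower and 21.4% higher over all probes, and 5 did not pass. The median of the 9 was -0.18, against -0.04 over all probes. EIF3B, an RNA-binding subunit of the eIF3 core, read -0.78, -0.81, -1.06 and -1.43 in LIM and -0.47, -0.21, -0.02 and -0.06 in HER. All arrays lay below 0, and the LIM arrays lay below all HER arrays. The LIM mean was -1.02 ± 0.30 (SD, n = 4) or 2.03-fold lower, adjusted p = 0.00128, against -0.19 ± 0.20 (SD, n = 4) in HER, adjusted p = 0.335. The difference between LIM and HER was -0.83 (95% interval -1.28 to -0.39), with a limma p of 0.0024 before and 0.135 after adjustment. With normexp background correction the LIM value was -0.44 with the backgrounds as measured and -0.55 with outlying backgrounds replaced, and without background correction it was -0.66, each still past the threshold.

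The other lower eIF3 subunits moved by less. EIF3G, a subunit with an RNA-binding domain, had a beef effect of -0.37 (adjusted p = 0.0212), EIF3M -0.32 (adjusted p = 0.0198) and EIF3D, a subunit able to bind the cap of certain mRNAs, -0.29 (adjusted p = 0.03). EIF3D and EIF3M lay below 0 on all 8 arrays, whereas EIF3G lay at 0.07 on LIM array 4. These calls were lost without HER array 1 (all of them), HER array 2 (EIF3G and EIF3D), HER array 4 (EIF3D), LIM array 1 (EIF3G and EIF3D) or LIM array 2 (all of them), with adjusted p from 0.0507 to 0.0752.

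Of the eIF3 subunits without a beef call, EIF3H had the highest effect at 0.14, EIF3J had -0.05, EIF3E -0.06, EIF3K -0.15 and EIF3CL, which carries EIF3C as a synonym in the RefSeq table, -0.18. EIF3CL passed in LIM at -0.28 (adjusted p = 0.0489) and EIF3K in HER at -0.32 (adjusted p = 0.0447). Both sat so near the threshold that they lost their call in most alternative fits, EIF3CL whichever array was left out and EIF3K whichever but LIM array 4. EIF3K read 0.10, -0.05, -0.02 and 0.04 in LIM and -0.35, -0.21, -0.21 and -0.50 in HER. Its difference between LIM and HER was 0.33, with a limma p of 0.0399 before and 0.308 after adjustment.

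The eIF4A helicases are close relatives in sequence, and EIF4A2 and EIF4A1 had like ratios on the HER arrays but not on the LIM arrays. EIF4A2, the form of the eIF4F helicase that abounds in muscle and brain, read 0.54, 0.50, 0.85 and 1.14 in LIM and 0.47, 0.50, 0.09 and 0.30 in HER, above 0 on every array. Its beef effect was 0.55 ± 0.10 (SE) or 1.46-fold, adjusted p = 0.00226, with 0.76 in LIM (adjusted p = 0.00397) and 0.34 in HER (adjusted p = 0.0974). EIF4A1, the form that prevails in dividing cells, read -0.13, 0.17, -0.04 and 0.21 in LIM and 0.40, 0.34, 0.04 and 0.36 in HER, with a beef effect of 0.17, adjusted p = 0.103, which passed at 0.20 with normexp after replacing outlying backgrounds and at 0.21 without background correction. EIF4A3, which serves the exon junction complex rather than the cap, read -0.50, -0.18, -0.56 and -0.48 in LIM and -0.25, -0.38, -0.33 and 0.06 in HER. Its beef effect was -0.33 ± 0.08 (SE), adjusted p = 0.0111, and it lay below EIF4A1 on all 8 arrays, by 0.50 on average. EIF4A2 exceeded EIF4A1 by 0.71 on average in LIM and by 0.05 in HER. These pairs were chosen after their values were seen, so the differences are descriptions with no test, and they compare ratios, not the levels of different probes.

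The only eIF4G gene with a probe was EIF4G2, a relative of the eIF4F scaffold that lacks the site for the cap-binding protein. It read -0.29, -0.37, -0.26 and 0.21 in LIM and -0.47, -0.48, -0.33 and -0.13 in HER, with a beef effect of -0.26, adjusted p = 0.0385. The call was lost with each array's median set to 0 (-0.23, adjusted p = 0.0537), with normexp correction on the backgrounds as measured (-0.47, adjusted p = 0.12) and without HER array 1, 2 or 3 or LIM array 1, 2 or 3.

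**Figure D3:**
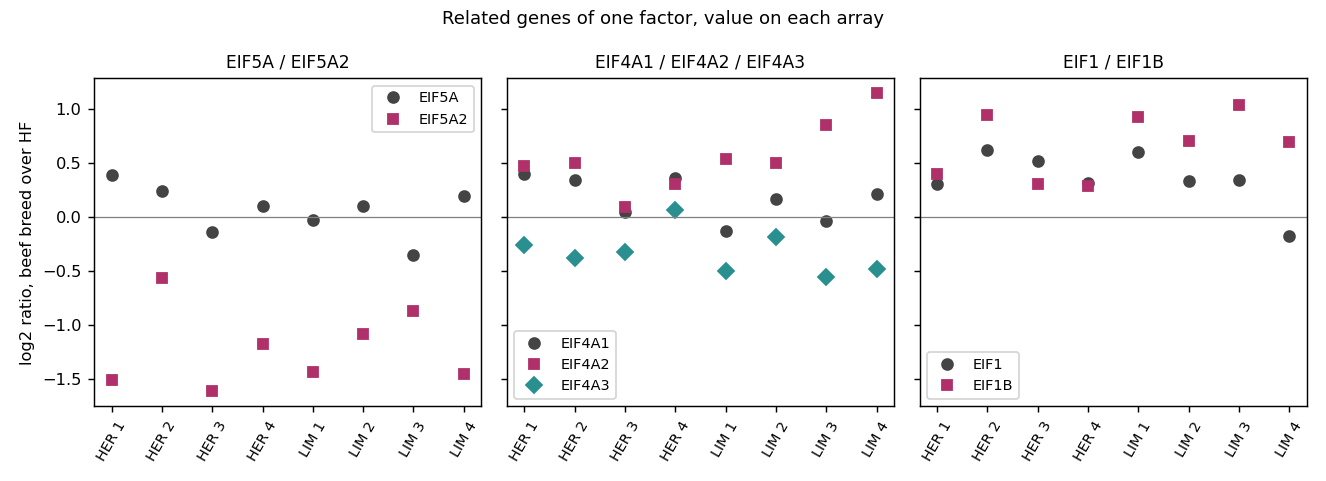
Log2 ratio of beef breed over HF (y axis) on each array (x axis, in no order within a breed) for EIF5A and EIF5A2 (left), EIF4A1, EIF4A2 and EIF4A3 (middle) and EIF1 and EIF1B (right). EIF5A2 lay between -1.61 and -0.57 while EIF5A lay between -0.35 and 0.39, and EIF4A2 and EIF1B stood clear of EIF4A1 and EIF1 on the LIM arrays.

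EIF5A2 was the translation factor with the largest beef effect in either direction. It encodes the less widespread form of eIF5A, the factor that carries the modified amino acid hypusine. It read -1.43, -1.09, -0.87 and -1.45 in LIM and -1.51, -0.57, -1.61 and -1.18 in HER. Every array lay below 0 and the groups overlapped fully. The mean was -1.21 ± 0.28 (SD, n = 4) in LIM, adjusted p = 0.00207, and -1.22 ± 0.47 (SD, n = 4) in HER, adjusted p = 0.00505. The beef effect of -1.21 ± 0.13 (SE) amounts to a 2.32-fold lower level, adjusted p = 0.000322. With normexp correction on the backgrounds as measured it was -0.63 (adjusted p = 0.00999), and the HER value alone was then -0.51 (adjusted p = 0.255).

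EIF5A, the form present in nearly all cells, did not pass in any comparison. It read -0.03, 0.10, -0.35 and 0.19 in LIM and 0.39, 0.24, -0.14 and 0.10 in HER, a beef effect of 0.06 (adjusted p = 0.587). EIF5A2 lay below EIF5A on all 8 arrays, by 0.52 to 1.90 and by 1.28 on average, again a pair chosen after its values were seen. DOHH, an enzyme of hypusine synthesis and the only gene of that step with a probe, had a beef effect of -0.18 (adjusted p = 0.195). EIF6, which keeps the large subunit from joining too early, had -0.18 (adjusted p = 0.155).

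In elongation the question was whether EEF1A2, the muscle form of eEF1A, differed from EEF1A1 between beef and dairy cells. EEF1A1 (probe A_73_108048) was level, at 0.17, -0.18, -0.25 and -0.24 in LIM and 0.10, 0.13, 0.47 and -0.15 in HER. Its beef effect was 0.01 (95% interval -0.20 to 0.22), adjusted p = 0.948. EEF1A2 (probe A_73_115974) read 0.87, 1.80, 0.74 and -0.81 in LIM and 0.83, 0.71, 1.83 and -0.82 in HER. On 3 arrays of each breed it lay well above 0, and on array 4 of each breed it lay as clearly below.

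The mean of EEF1A2 was 0.65 ± 1.08 (SD, n = 4) in LIM, adjusted p = 0.305, and 0.64 ± 1.09 (SD, n = 4) in HER, adjusted p = 0.338. The beef effect was 0.64 (95% interval -0.11 to 1.40), adjusted p = 0.14. Within an array EEF1A2 exceeded EEF1A1 by 0.63 ± 0.90 (SD, n = 8) on average and on 6 of the 8 arrays. The 2-sided exact sign-flip permutation p was 0.0703, where 8 arrays can give 0.0078 at the least. That test takes the arrays as independent, although HF bulls recur across them. The difference was 0.77 over the LIM and 0.50 over the HER arrays, with exact p of 0.25 and 0.375, and 4 arrays cannot go below 0.125. Without HER array 4 the difference over both breeds was 0.82 (exact p = 0.0312) and without LIM array 4 it was 0.81 (exact p = 0.0469).

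EEF1A2 was also the only gene whose brightest probe was not well above background throughout. The HF channel of HER array 2 and the HER channel of HER array 4 were not well above background. Of the HER arrays only 1 and 3 thus had both channels of the ratio well above background. Its beef effect was 0.10 and 0.20 under the normexp settings and 0.29 without background correction, all short of the threshold. It passed with array weights at 0.84 (adjusted p = 0.0336), without HER array 4 at 0.89 (adjusted p = 0.0452) and without LIM array 4 at 0.89 (adjusted p = 0.0379). Leaving out a single array moved the LIM mean between 0.27 (without LIM array 2) and 1.14 (without LIM array 4) and the HER mean between 0.24 (without HER array 3) and 1.12 (without HER array 4). On the arrays where EEF1A2 was low the median of the markers of differentiating muscle cells was 3.03 (HER array 4) and 3.35 (LIM array 4), within the 2.44 to 4.15 of the others. These markers did not move alike there. The myosin light chain gene MYL1 was lowest on the same arrays, at 2.28 and 1.23, against 2.39 to 4.90 elsewhere. MYL4, another myosin light chain gene, was highest on them, at 2.63 and 2.97, against 1.10 to 2.25 elsewhere. The median of the fibroblast markers was lowest on the same arrays, at 0.67 and 0.47, against 1.90 to 3.38 on the others. Those arrays also had the lowest medians of the satellite cell and myoblast markers (0.73 and 1.39), the smooth muscle markers (0.68 and 0.44) and the adipocyte markers (-0.51 and -0.49). The median of the dividing cell markers was highest on them, at 0.08 and 0.80, against -1.45 to -0.14 on the others. Their medians of the endothelial (1.15 and 3.46), macrophage and leukocyte (0.49 and 1.12) and neuron markers (-0.30 and -0.07) were not the lowest. The part of these cell types in the EEF1A2 ratios was not tested.

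**Figure D4:**
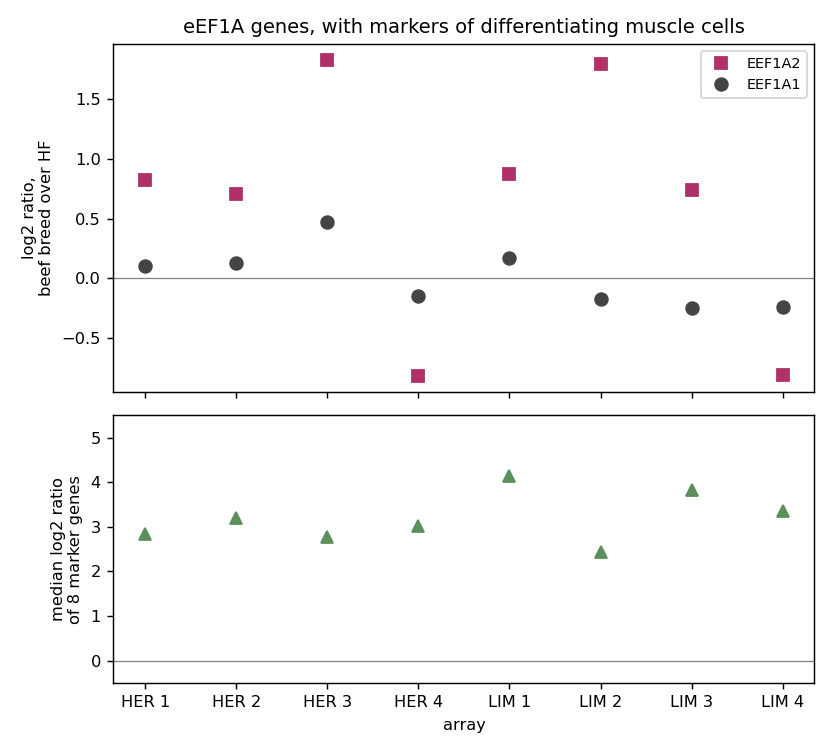
Upper panel, log2 ratio of beef breed over HF of EEF1A2 (squares) and EEF1A1 (circles) on each array; lower panel, median log2 ratio of 8 marker genes of differentiating muscle cells on the same arrays. EEF1A2 was above 0.7 on 6 arrays and near -0.8 on array 4 of each breed, while the marker median stayed at 2.44 or more on all 8.

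EEF1B2, a subunit that recharges eEF1A with GTP, was lower in both breeds. It read -0.90, -0.87, -0.73 and 0.00 in LIM and -0.92, -0.74, -0.45 and -0.37 in HER. LIM array 4 stood alone at no change. The means were -0.63 ± 0.42 (SD, n = 4) in LIM, adjusted p = 0.0218, and -0.62 ± 0.26 (SD, n = 4) in HER, adjusted p = 0.0317. The beef effect was -0.62 ± 0.12 (SE) or 1.54-fold lower, adjusted p = 0.00357. The LIM call was lost without LIM array 1, 2 or 3 and the HER call without HER array 1, 2 or 3 or LIM array 3, with adjusted p up to 0.127, but the beef effect kept its call under every alternative tried. EEF1E1, which carries an elongation factor name but belongs to the complex of tRNA synthetases, had a beef effect of -0.10 (adjusted p = 0.457).

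EEF2, which moves the ribosome along the mRNA, did not pass, at 0.14, 0.07, 0.36 and 0.21 in LIM and -0.06, -0.03, 0.14 and -0.04 in HER. The beef effect was 0.10 (95% interval -0.06 to 0.25), adjusted p = 0.265. It was called with loess and no background correction, at 0.18 (adjusted p = 0.0298), and with normexp after replacing outlying backgrounds, at 0.17 (adjusted p = 0.0368), and it read -0.10 with the backgrounds as measured (adjusted p = 0.719).

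EEF2K, the kinase that holds eEF2 back, was split between the breeds. It read -0.48, -0.11, -0.37 and -0.04 in LIM and 0.51, 0.75, 0.36 and 0.38 in HER, so that all LIM arrays lay below 0 and all HER arrays above. The HER mean was 0.50 ± 0.18 (SD, n = 4) or 1.41-fold, adjusted p = 0.0195, and the LIM mean was -0.25 ± 0.21 (SD, n = 4), adjusted p = 0.127. The HER call was lost without HER array 1 or 2, at adjusted p of 0.0714 and 0.0904. The difference between LIM and HER was -0.75 (95% interval -1.13 to -0.37), with a limma p of 0.00176 before and 0.12 after adjustment. On the raw scale of the scanner, red over green, EEF2K was below 0 on all 8 arrays, as was no other translation factor probe. Breed and dye orientation cannot be told apart in this difference. The beef effect, in which the dye cancels, was 0.12 (adjusted p = 0.247).

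Over the family no probe passed the adjusted threshold for a difference between LIM and HER, where 0.233% of all probes did. At an unadjusted p of at most 0.05 limma called 5 of the 39 (12.8%), against 14.7% of all probes, and the 5 were EEF2K, EIF3B, EIF2AK3, EIF1AD and EIF3K. The test of the study's methods called none after adjustment, against 0.193% of all probes. The difference between LIM and HER holds the slide and the dye as well as the breed.

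**Figure D5:**
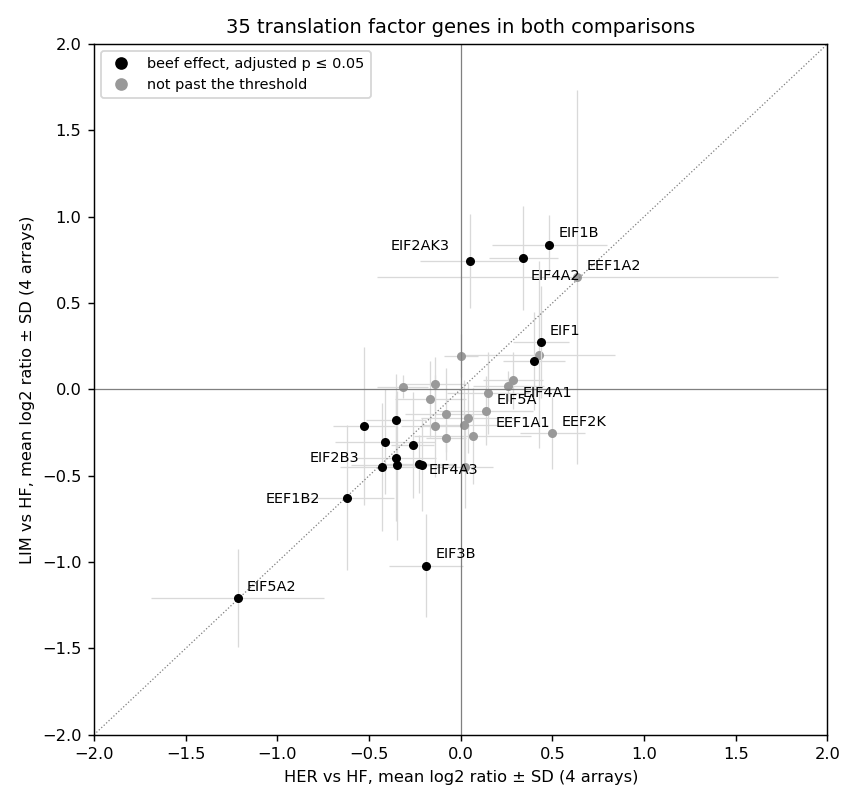
Mean log2 ratio in HER (x axis) and LIM (y axis) for the brightest probe of each of 35 genes, with SD over 4 arrays as grey lines and genes past an adjusted p of 0.05 for the beef effect in black; the dotted line marks equal ratios, and both comparisons use HF cultures. EIF5A2 sits on the line near -1.21 on both axes, while EIF3B (-0.19 in HER, -1.02 in LIM), EIF2AK3 (0.05, 0.74) and EEF2K (0.50, -0.25) lie off it.

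Both factors with special tasks had a lower beef effect, but neither passed in LIM alone or in HER alone. The limma adjusted p in LIM and HER was 0.143 and 0.0727 for EEFSEC. For the brighter probe of EEF1AKMT3 it was 0.351 and 0.0514, and that probe lay above 0 on LIM arrays 2 and 4 (0.03 and 0.28). EEFSEC, which brings selenocysteine to the ribosome, had a beef effect of -0.36 (adjusted p = 0.0226) and read 0.05 on LIM array 4 against -0.75 to -0.09 on the other arrays. EEF1AKMT3, a methyltransferase that acts on eEF1A, had -0.37 (adjusted p = 0.0324) by its brighter probe and -0.24 (adjusted p = 0.0279) by the other. The EEFSEC call was lost without HER array 1 or 2 or LIM array 1 or 2, and the EEF1AKMT3 call without HER array 1, 2 or 3 or LIM array 1 or 3 and with normexp correction on the backgrounds as measured (-0.18).

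Neighbouring genes of translation control, taken from a list of 46 genes of which 24 had a tested probe, gave 6 higher, 4 lower and 14 uncalled beef effects, against 21.4% higher and 26.2% lower over all probes. Of 5 genes of the stress response that follows eIF2 phosphorylation, 4 were higher, and the median of the 5 was 0.45 against -0.04 over all probes. DDIT3, also called CHOP, a transcription factor of endoplasmic reticulum stress, had a beef effect of 0.98, and the stress factor ATF3 had 0.58. CHAC1, which breaks down glutathione, had 0.45, and PPP1R15A, known as GADD34, which brings a phosphatase to eIF2, had 0.40. Each of these genes lay above 0 on every array, as did 11.7% of all probes. ASNS, asparagine synthetase, had 0.27 (adjusted p = 0.117). In LIM these 4 genes also passed, and in HER DDIT3 and ATF3 did.

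Among 7 genes of mTOR and MNK signalling RHEB, the activator of mTOR, had 0.39 and MKNK1, a kinase of eIF4E, 0.34, whereas MLST8, a subunit of the mTOR complexes, was lower at -0.69. DDIT4, an inhibitor of mTOR, passed in LIM alone at 1.04 ± 0.89 (SD, n = 4), adjusted p = 0.0393, against 0.04 in HER, and ranged from 0.18 to 2.21 on the LIM arrays. MLST8 read -0.86 to -0.93 on the LIM arrays and -0.83 to -0.23 on the HER arrays. The ribosome recycling factor ABCE1 was lower at -0.56 and the release factor GSPT1 at -0.49, while MCTS1 did not pass. Of 4 mitochondrial translation factors GFM2 was lower at -0.31. None of 4 partners of the cap and the poly(A) tail had a beef call, and PABPC4, a poly(A)-binding protein, was lower in LIM alone at -0.44.

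The last LIM array stood apart from the rest. Its correlation with the other arrays over all tested probes ran from 0.08 to 0.56, and 11 of the 19 probes with a beef effect had the sign of that effect on it, against 18 or 19 on each other array. Those 19 probes were called from these same arrays, a choice that itself favours like signs on most arrays. Of the 39 probes 21 lay above 0 on LIM array 4, against 12 to 19 on the others. CDK1 and PCNA, markers of dividing cells, had their highest ratios there, at 1.01 and 0.58, against -1.25 to 0.39 and -1.66 to -0.23 elsewhere. HER array 4 came next for both genes, at 0.39 and -0.23. The part of dividing cells in the factor ratios was not tested. Without this array 15 probes were called in LIM, 13 in HER and 22 for the beef effect. Of all probes, 41.2%, 33.9% and 54.1% were called without this array. Calls gained without it were EIF1, EIF2B3, EIF2S1 and EIF3G in LIM, EIF1AX, EIF2B3, EIF4A2, EIF4G2, EEFSEC and EEF1AKMT3 in HER, and EIF1AD, EIF6 and EEF1A2 for the beef effect. On HER array 3 the scanner software had flagged 130 spots as outlying, against 6 to 37 elsewhere, and this array correlated with LIM array 4 at 0.08. Without it 9 probes were called in LIM, 2 in HER and 16 for the beef effect. Of all probes, 33.3%, 15.1% and 42.3% were then called.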

How the data were processed

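RNA of beef and HF muscle cell cultures was hybridised pairwise to 8 two-colour Agilent bovine arrays. The authors deposited each array's Feature Extraction 10.7.3.1 output, from which the log10 ratio of red over green, already background-subtracted and dye-normalized by that software, was taken, with its flags and the intensity of each channel; the authors' deposited table of log10 ratios held the same values (largest difference 0). The array grid was built on HGSC Btau_3.1. The files hold no gene names, so symbols came from a RefSeq table (7793 of 20693 accessions matched), and no sequence was at hand.

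Log10 ratios were turned to log2 of beef over HF, marked spots were dropped (3 of the family), and the spots of a probe were averaged. Probes flagged well above background in 4 or more of the 16 channels were fitted with limma 3.58.1 in R 4.3.3 over all 8 arrays, with a mean for each comparison. A call is a Benjamini-Hochberg adjusted p of at most 0.05 over all tested probes. For genes with 2 probes the brighter stands for the gene. The scripts were tested on simulated data. The number of arrays limits the precision.

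The members, roles, marker lists and list of neighbouring genes were chosen with earlier results of these data known. Genes were named by a fixed rule, the eEF1A, eEF2, EIF4EBP and eIF2 kinase genes whatever their values, then up to 10 called genes in each direction and the extremes of each role; others named beyond the rule complete their role. The deposited ratios were compared with normexp (offset 50) and loess, with and without replacing outlying backgrounds, no background correction, centring, scaling, kept marked spots, no filter, a filter of 12 channels, array weights, a replicate block, the mean over probes, each array left out, and the methods' t-test at an unadjusted p of 0.05 and a fold change of 1.3.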

Additional observations from a re-analysis of the deposited data

Results flagged for a closer look

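The ratio of EEF2K lay below 0 on all 4 LIM arrays and above 0 on all 4 HER arrays, with a LIM minus HER difference of -0.75 that did not pass the adjusted threshold (limma adjusted p = 0.12).

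In 5 of the 78 groups of 4 arrays a single array lay far from the other 3, where chance gives about 1 in 20. On HER array 2 EIF1B was at 0.95, with 0.28 to 0.40 in the rest of HER. On HER array 3, which holds more marked spots than any other array, EIF3E was at 0.43 against -0.11 to -0.07, EEF2 at 0.14 against -0.06 to -0.03, and EIF4A1 at 0.0434 against 0.34 to 0.40. EIF2D was at -0.60 on LIM array 1, against 0.40 to 0.56 on the other LIM arrays.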

How the results depend on the processing

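No result changed direction with its call under any alternative. Of the 17 genes with a beef effect, 7 kept their call under all alternatives tried (EIF1B, EIF4A2, EIF2AK3, EIF5A2, EEF1B2, EIF3B and EIF2B3) and 9 without each array in turn. Of the 10 LIM and 6 HER genes called by their brightest probe, 5 and 1 kept their call without each array in turn. Under all alternatives 1 and 0 of them kept it. The cause was not tested for any of these changes. Counts of probes called in HER, 7 as reported, were 0 with normexp and loess on the backgrounds as measured (where no probe of the array was called), 14 with arrays scaled to a common spread, 12 with array weights and 0 with the methods' t-test after adjustment. The share of all probes called in HER, 25.4% as reported, was 35.1% with scaling, 35.2% with array weights and 0.0113% with the adjusted t-test. Counts in LIM, 10 as reported, were 16 with array weights and 1 with the adjusted t-test. Of all probes 47.7% and 6.11% were called in LIM under these settings, against 35.9% as reported. The beef effect, 19 as reported, gave 8 at the methods' thresholds (unadjusted p and fold change) by the t-test and 8 by limma, since most effects were smaller than the fold required. Those thresholds called 38.1% of all probes by the t-test and 41% by limma. The LIM minus HER difference, 0 as reported, gave 1 with array weights, 4 by the t-test and 4 by limma at the methods' thresholds. The shares of all probes were 1.32%, 12.1% and 14.1%. Leaving out each array in turn gave 1 to 13 probes in HER, 5 to 15 in LIM, 10 to 22 for the beef effect and 0 to 0 for the difference. Over all probes the shares ran from 8.66% to 33.9% in HER, 21.5% to 41.2% in LIM and 38.8% to 54.1% for the beef effect. The difference of EEF1A2 and EEF1A1, 0.63 as reported, was 0.44 to 0.82 without each array in turn, with exact p below the threshold without HER array 4 (0.82) or LIM array 4 (0.81). With normexp it was 0.25 and 0.14, and with no background correction 0.22.

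The sources used here do not say that equal replicate numbers mark shared material. Same-numbered LIM and HER arrays correlated at -0.24, 0.13, 0.30 and 0.54 in their deviations, and not every array correlated best with its own number, though both arrays numbered 4 did, so the block stands as an alternative only. With the replicate number as a block, 12 probes were called in LIM, 6 in HER, 19 for the beef effect and 0 for the difference. Of all probes 36.7%, 24.4%, 48.6% and 0% were called. Among brightest probes it gained calls for EIF2B3 (adjusted p = 0.0283), EIF2S1 (0.0358) and EIF3G (0.039) in LIM, for EIF2B3 (0.044) and EIF1AX (0.0423) in HER and for the EEF1A2 beef effect (0.0318). Those of EIF3CL in LIM (0.0859) and of EIF1 (0.0613), EIF1B (0.0642) and EIF3K (0.0837) in HER no longer passed.

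Ratios are less certain where a channel nears background, as for EEF1A2. Its beef effect was 0.64 as reported, 0.10 and 0.20 with normexp and 0.29 without background correction. Of the 39 probes 37 were above background on all channels.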
